A study of Mus musculus with 22 samples.

Results

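The transcripts of 5 genes, Cpa3, Kit, Cd200r1, Mctp1 and Hdac9, were followed through the maturation of gamma-delta thymocytes in the mouse. They were chosen as genes that were lower in both gamma-chain subsets after the surface protein CD24 had been lost, so their fall at that step is a description and not a finding. All 5 were measured, each by a single probe set with exactly 1 gene symbol, out of 14860 genes with such a probe set. Total RNA was taken from sorted gamma-delta cells of the adult thymus (C57BL/6 mice, female, 8 weeks old) and hybridised to 22 mouse exon arrays. The 6 groups cross the gamma chain that the cells carry (Vg1.1 or Vg2) with 3 stages set by CD24 and CD73. Vg1.1+ cells had 4 arrays at CD24+CD73-, 3 at CD24+CD73+ and 4 at CD24-CD73+. Vg2+ cells had 3, 4 and 4 arrays at the same stages. No group was treated and all came from the same strain. Replicates are labelled biological, with no word on whether each is a different animal, so a p-value here covers only the variation among these arrays, which may be technical.

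CD24 is carried by immature thymocytes and lost on maturation, while CD73 marks thymocytes committed to a gamma-delta fate, so CD24+CD73- is read as the first stage, CD24+CD73+ as the next and CD24-CD73+ as the last. The genes followed have different roles. Kit encodes the receptor tyrosine kinase for stem cell factor, known from haematopoietic stem cells, early thymic progenitors and mast cells. Cpa3 encodes carboxypeptidase A3, a metalloprotease best known from mast cell granules. Cd200r1 encodes an inhibitory receptor for the surface protein CD200, Mctp1 a membrane protein with C2 domains that bind calcium, and Hdac9 a class IIa histone deacetylase that represses targets of MEF2 factors.

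The 150 bases directly before the start of 3 of the genes are shown as examples of the courses described below, a decline at each step (Cpa3) and a peak (Kit and Mctp1). They were read from RefSeq (GRCm38.p6), which gave an entry for 4 of the 5 genes and none for Cd200r1. The Cpa3 window is chr3:20242182-20242331 (minus strand), that of Kit is chr5:75574837-75574986 (plus strand) and that of Mctp1 is chr13:76579447-76579596 (plus strand). Capitals mark matches on either strand to GATAA (the core bound by GATA factors), ACCACA (RUNX factors), CANNTG (the E-box of basic helix-loop-helix factors) and TATAAA (the TATA box).
Cpa3: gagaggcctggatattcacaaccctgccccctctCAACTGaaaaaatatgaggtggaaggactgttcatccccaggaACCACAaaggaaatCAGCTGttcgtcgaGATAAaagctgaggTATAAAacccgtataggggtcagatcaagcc
Kit: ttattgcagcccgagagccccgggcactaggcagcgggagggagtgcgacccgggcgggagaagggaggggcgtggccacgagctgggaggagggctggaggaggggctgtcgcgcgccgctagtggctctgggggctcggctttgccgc
Mctp1: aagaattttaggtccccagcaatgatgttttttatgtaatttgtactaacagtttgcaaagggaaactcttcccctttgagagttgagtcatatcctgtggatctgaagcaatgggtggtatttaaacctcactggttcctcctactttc

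The Cpa3 window held 5 matches, which covered all 4 motifs and did not overlap one another. The TATAAA match began 31 bases before the start, the GATAA match 45, the ACCACA match 73 and the E-boxes 59 and 116. Neither the Kit nor the Mctp1 window held any of these letters. Hdac9, which like them was highest at CD24+CD73+, has 2 entries, not printed here, and both held matches: 2 E-boxes and TATAAA (29 bases before the start) in 1, and 2 E-boxes and GATAA (38 bases before) in the other. Whether the presence of matches goes with the course of a gene was not tested. Among 32851 promoter entries of the same length, 13.3% held GATAA, 8.4% ACCACA, 47.7% CANNTG and 7.57% TATAAA, while 0.0974% held all 4 and 40.3% none. G and C made up 48% of the Cpa3 window, 73.3% of the Kit window and 39.3% of the Mctp1 window, against a median of 54% over all entries. A match is a run of letters and was not tested as a binding site.

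Across the stages the 5 transcripts took 3 courses, as the plot of every array shows. Cpa3 was highest at the first stage and lower at each later one. Kit, Cd200r1 and Mctp1 rose with CD73 in both subsets and were lower again once CD24 was gone, Mctp1 still above its first level. Hdac9 had its highest means at CD24+CD73+ and ended below the level at which it began. Values are log2 expression values on the scale of the array, on which 1 unit is a doubling, and are not comparable between genes. In bulk samples such as these, fewer cells that carry a transcript and less of it per cell cannot be told apart.

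**Figure D1:**
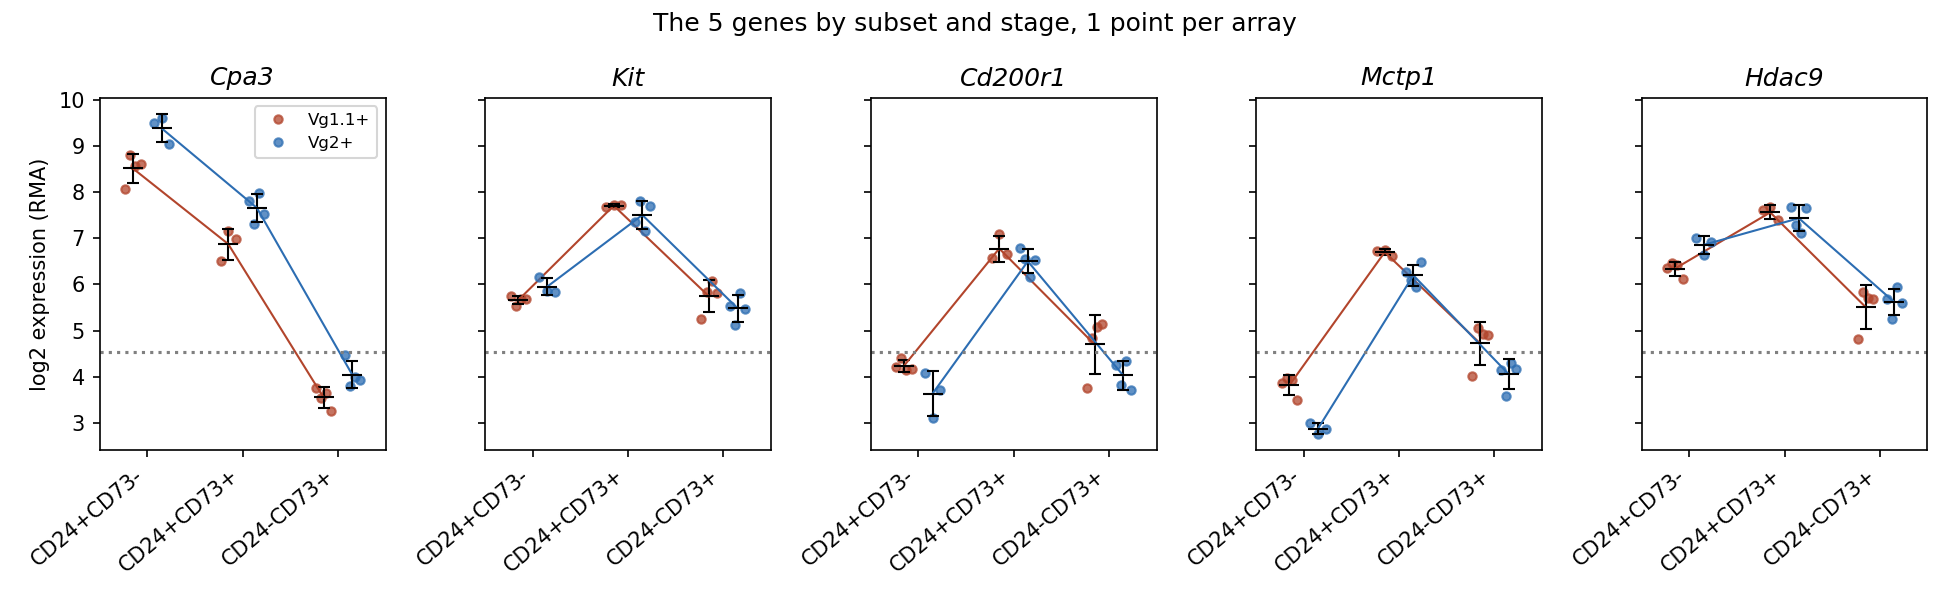
Log2 expression of the 5 genes on every array (points) by stage for Vg1.1+ (red) and Vg2+ (blue) cells, with the mean and SD of each group (black bars) and the median of the whole table, 4.55 (dotted line). Cpa3 is lower at each later stage, and the other 4 are highest at CD24+CD73+.

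A pair of arrays had a narrower spread of log2 values than the rest, namely Vg1.1+ CD24-CD73+ replicate 1 (SD over all probe sets 1.61) and Vg2+ CD24+CD73+ replicate 3 (1.71), against 1.81 to 2.09 on the other arrays. Nt5e, the gene of CD73, was above the table median on every array of the 4 CD73+ groups and on no array of the CD24+CD73- groups. The T-cell receptor component Cd3e was above it on all 22 arrays. The probe set for the gene of CD24 also lists a second gene and was not used here. Of gamma-chain segments only the constant genes Tcrg-C1, Tcrg-C2 and Tcrg-C4 were looked up, and none had a probe set of its own under that name.

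Cpa3, the carboxypeptidase, read 8.07, 8.81, 8.56 and 8.60 in Vg1.1+ CD24+CD73- cells, 6.50, 7.15 and 6.97 in CD24+CD73+ cells, and 3.76, 3.54, 3.66 and 3.26 in CD24-CD73+ cells. Vg2+ cells gave 9.50, 9.61 and 9.03 at CD24+CD73-, 7.81, 7.31, 7.99 and 7.52 at CD24+CD73+, and 4.47, 3.80, 4.00 and 3.94 at CD24-CD73+. No array of any stage overlapped with an array of another stage in the same subset, and all 8 arrays of the last stage lay below the table median. As CD73 appeared, Cpa3 fell by 1.64 ± 0.21 on the log2 scale in Vg1.1+ cells (CD24+CD73+ minus CD24+CD73-, ± SE, limma adjusted p = 1.57e-05, n = 3 against 4 arrays). The fall in Vg2+ cells was by 1.72 ± 0.21 (limma adjusted p = 5.13e-06, n = 4 against 3). The second step, which chose the gene, brought a difference of -3.32 ± 0.21 in Vg1.1+ cells and -3.61 ± 0.20 in Vg2+ cells. Against the first stage, Cpa3 at the last was lower by a log2 difference of -4.95 ± 0.20 in Vg1.1+ cells (limma adjusted p = 1.26e-13) and -5.33 ± 0.21 in Vg2+ cells (limma adjusted p = 7.81e-14). No fold is given, since the last-stage values lay where the scale is compressed.

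The order of the 6 Cpa3 levels was strict. Vg2+ CD24+CD73- cells came highest, then Vg1.1+ CD24+CD73-, Vg2+ CD24+CD73+, Vg1.1+ CD24+CD73+, Vg2+ CD24-CD73+ and Vg1.1+ CD24-CD73+ cells, and no neighbours in this order overlapped. At each stage, that is, the Cpa3 values of Vg1.1+ cells lay below those of Vg2+ cells, at CD24-CD73+ with all of them under the table median. The difference passed the test at CD24+CD73- alone.

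Kit, the receptor of stem cell factor, read 5.75, 5.54, 5.68 and 5.69 in Vg1.1+ CD24+CD73- cells, 7.68, 7.71 and 7.73 in CD24+CD73+ cells, and 5.25, 5.83, 6.07 and 5.82 in CD24-CD73+ cells. In Vg2+ cells it read 6.16, 5.86 and 5.83, then 7.36, 7.81, 7.15 and 7.69, then 5.53, 5.12, 5.82 and 5.46 at the same stages. The 7 arrays of the CD24+CD73+ stage lay above all 15 others, and every array was above the table median. Kit rose 4.12-fold as CD73 appeared in Vg1.1+ cells (log2 difference 2.04 ± 0.18, limma adjusted p = 1.28e-07). It rose 2.93-fold in Vg2+ cells (1.55 ± 0.18, limma adjusted p = 2.87e-06). The step that chose it brought -1.96 ± 0.18 in Vg1.1+ cells and -2.02 ± 0.17 in Vg2+ cells. Between the last stage and the first the difference was 0.08 ± 0.17 in Vg1.1+ cells (95% interval -0.27 to 0.43, limma adjusted p = 0.78) and -0.47 ± 0.18 in Vg2+ cells (-0.85 to -0.09, limma adjusted p = 0.07). The Vg2+ difference was the same without the pair of narrow arrays, where it passed (limma adjusted p = 0.0156). Among the 4 groups outside the peak each overlapped with its neighbour in the order of means, while Vg2+ CD24+CD73- cells lay wholly above Vg1.1+ CD24+CD73- and Vg2+ CD24-CD73+ cells.

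Cd200r1, the receptor for CD200, read 4.22, 4.42, 4.14 and 4.18 in Vg1.1+ CD24+CD73- cells, 6.58, 7.10 and 6.65 in CD24+CD73+ cells, and 3.75, 4.84, 5.08 and 5.14 in CD24-CD73+ cells. Vg2+ cells gave 4.08, 3.11 and 3.72, then 6.78, 6.55, 6.15 and 6.52, then 4.26, 3.83, 4.33 and 3.71. It was above the table median on all 7 arrays of the CD24+CD73+ stage, on 3 of Vg1.1+ CD24-CD73+ cells and on no other. The rise with CD73 was by 2.54 ± 0.27 on the log2 scale in Vg1.1+ cells (limma adjusted p = 1.32e-06) and by 2.86 ± 0.27 in Vg2+ cells (limma adjusted p = 1.69e-07), from first-stage values all below the table median, where differences are compressed. The later step brought -2.07 ± 0.27 in Vg1.1+ cells and -2.47 ± 0.25 in Vg2+ cells. The last stage differed from the first by 0.46 ± 0.25 in Vg1.1+ cells (limma adjusted p = 0.207). The array of narrow spread held the lowest value of its group, 3.75, and without the pair of such arrays the same difference was 0.78 (limma adjusted p = 0.00462). In Vg2+ cells it was 0.39 ± 0.27 (limma adjusted p = 0.343). Its probe set listed no other gene. The related receptor genes Cd200r2 and Cd200r3 were below the table median on all 22 arrays.

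Mctp1, the C2-domain membrane protein, read 3.88, 3.97, 3.93 and 3.50 in Vg1.1+ CD24+CD73- cells, 6.72, 6.75 and 6.62 in CD24+CD73+ cells, and 4.03, 5.05, 4.93 and 4.90 in CD24-CD73+ cells. In Vg2+ cells it read 3.01, 2.76 and 2.88, then 6.27, 6.09, 5.95 and 6.48, then 4.16, 3.59, 4.31 and 4.18. All its first-stage values lay below the table median. With CD73 it rose by 2.88 ± 0.21 on the log2 scale in Vg1.1+ cells (limma adjusted p = 5.51e-09) and by 3.31 ± 0.21 in Vg2+ cells (limma adjusted p = 4.9e-10). The step that chose it brought -1.97 ± 0.21 in Vg1.1+ cells and -2.14 ± 0.19 in Vg2+ cells. At the last stage Mctp1 was higher than at the first by 0.90 ± 0.19 in Vg1.1+ cells (limma adjusted p = 0.00116) and by 1.18 ± 0.21 in Vg2+ cells (limma adjusted p = 0.000164). In Vg2+ cells every value of both these stages lay below the table median, where the scale is compressed. In neither subset did the arrays of those stages overlap.

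Hdac9, the deacetylase, read 6.35, 6.47, 6.42 and 6.13 in Vg1.1+ CD24+CD73- cells, 7.60, 7.68 and 7.39 in CD24+CD73+ cells, and 4.81, 5.84, 5.71 and 5.70 in CD24-CD73+ cells. In Vg2+ cells it read 7.00, 6.65 and 6.92, then 7.67, 7.28, 7.11 and 7.66, then 5.69, 5.26, 5.93 and 5.60. The first rise was 2.32-fold in Vg1.1+ cells (1.22 ± 0.21 on the log2 scale, limma adjusted p = 0.000413). In Vg2+ cells the difference of 0.58 ± 0.21 did not pass (limma adjusted p = 0.0756), although the arrays of the stages did not overlap. Without the pair of arrays of narrow spread it was 0.68 (limma adjusted p = 0.00414). The later step brought -2.05 ± 0.21 in Vg1.1+ cells and -1.81 ± 0.19 in Vg2+ cells. The last stage was lower than the first by a log2 difference of -0.83 ± 0.19 in Vg1.1+ cells (limma adjusted p = 0.0027) and -1.23 ± 0.21 in Vg2+ cells (limma adjusted p = 0.000108), and every array of the last stage lay below every array of the first.

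**Figure D2:**
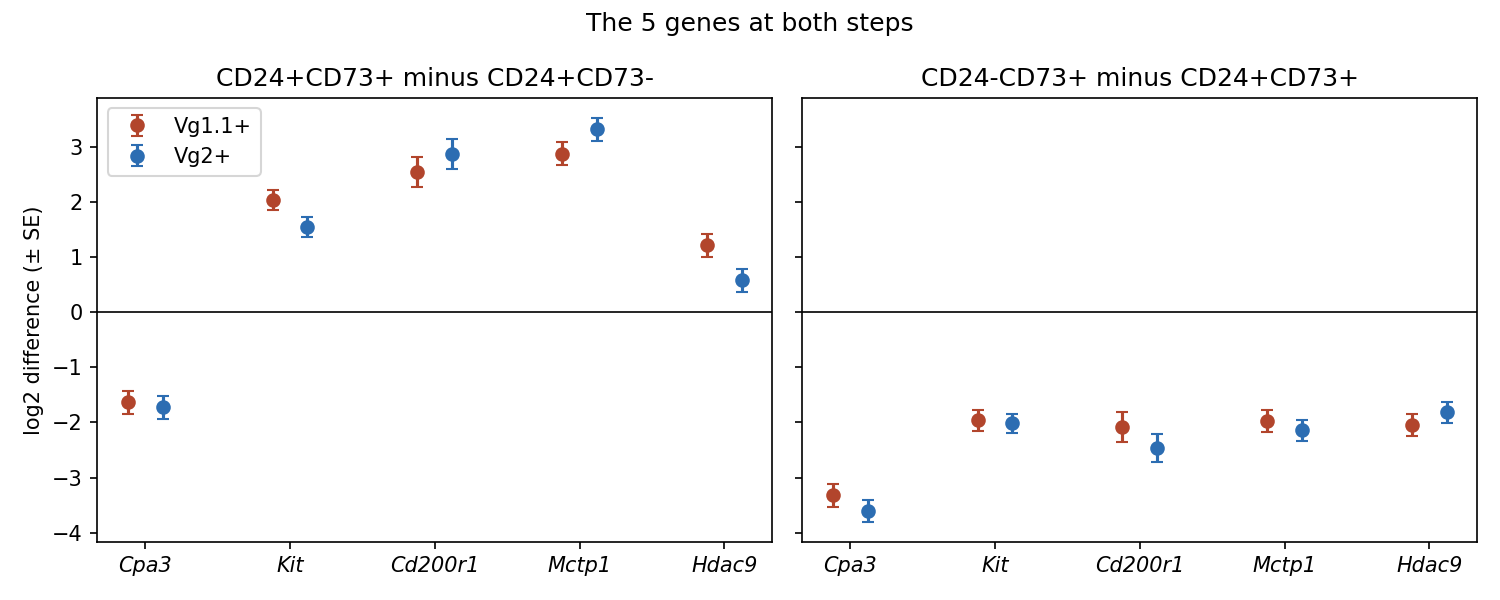
Log2 difference ± SE of the 5 genes at the step in which CD73 appears (left) and at the step in which CD24 is lost (right), in Vg1.1+ (red) and Vg2+ (blue) cells. At the first step Cpa3 lies below 0 in both subsets and the other genes above it, while all 5 lie below 0 at the step that chose them.

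Before their later fall, then, Kit, Cd200r1 and Mctp1 rose at CD24+CD73+ in both subsets, Hdac9 passed as higher in Vg1.1+ cells alone, with no test of the subsets' difference passed, and Cpa3 fell in both. In Vg1.1+ cells 4 of the 5 passed as higher and 1 as lower, where 7.82% of the 8545 tested genes were called, 4.37% higher and 3.45% lower. In Vg2+ cells 3 passed as higher and 1 as lower, beside 12.2% of tested genes, 5.82% higher and 6.41% lower. Of all tested genes 3.24% rose in both subsets. The arrays of these stages did not overlap for any of the 5 genes in either subset, as for 25.9% of tested genes in Vg1.1+ cells and 22.4% in Vg2+ cells. The median log2 difference of the 5 was 2.04 in Vg1.1+ cells and 1.55 in Vg2+ cells, against 0.00 and -0.05 over all tested genes. This step shares the CD24+CD73+ arrays with the step by which the genes were chosen, so an array error there would enter both with opposite sign. A choice by the fall from that stage also favours genes that are high at it. The shares and medians over all tested genes are therefore no matched background for these counts. Whether the subsets differed in the CD73 step was tested directly. None of the 5 genes passed (limma adjusted p from 0.495 to 0.931, and 0.0936% of tested genes were called). At an unadjusted threshold of 0.05, only Hdac9 stood apart, with a step larger by 0.64 ± 0.29 in Vg1.1+ cells (unadjusted 95% interval 0.03 to 1.25).

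Between the last and the first stage 3 of the 5 genes passed in each subset, where 23.3% of tested genes were called in Vg1.1+ cells and 24% in Vg2+ cells. They were Cpa3 and Hdac9, lower at the last stage (as 13.6% of tested genes in Vg1.1+ cells and 12.9% in Vg2+ cells), and Mctp1, higher (as 9.71% and 11.1%). This comparison shares the CD24-CD73+ arrays with the step that chose the genes. The median difference of the 5 was 0.08 in Vg1.1+ cells and -0.47 in Vg2+ cells, against -0.04 and -0.03 over all tested genes.

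At the step that chose them, the 5 genes held the first 5 places among 368 genes that were lower in both subsets (4.31% of those tested), ranked by the mean of both differences. In Vg1.1+ cells 11.2% of tested genes were called at this step (4.28% higher, 6.92% lower), and in Vg2+ cells 20.2% (10.3% higher, 9.91% lower). The mean was -3.46 for Cpa3, -2.27 for Cd200r1, -2.06 for Mctp1, -1.99 for Kit and -1.93 for Hdac9. The genes just outside the choice were P2rx7, a channel opened by extracellular ATP (-1.88), the linker histone H1f5 (-1.87), the mitotic kinesin Kif11 (-1.81), the ETS factor Etv5 (-1.74) and the transport protein gene Ift80 (-1.73). Hdac9, the last inside, and P2rx7, the first outside, lay 0.05 apart on this scale. The difference between the subsets at this step (Vg1.1+ minus Vg2+) was -0.23 ± 0.28 for Hdac9, and between -0.35 and 0.15 over the alternative settings. It was 0.39 ± 0.37 for Cd200r1, and between 0.25 and 0.96 over them, with 0.83 without the pair of narrow arrays.

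The subsets were set against each other at each stage. The step that chose the genes used no CD24+CD73- array, although the genes were chosen with earlier results of these data known. Cpa3 was lower in Vg1.1+ cells than in Vg2+ cells by a log2 difference of -0.87 ± 0.21 (means 8.51 ± 0.31 and 9.38 ± 0.31, SD, limma adjusted p = 0.0332, n = 4 against 3 arrays). Mctp1 was higher in Vg1.1+ cells by 0.94 ± 0.21 (means 3.82 ± 0.22 and 2.88 ± 0.13, limma adjusted p = 0.0182), and both groups of Mctp1 values lay below the table median, so that Mctp1 was tested only because of its values at the other stages. With 2 of 5 genes called, the share over all tested genes was 2.05% (1.56% higher, 0.492% lower). The arrays of the subsets did not overlap for any of the 5 genes, as for 18.8% of all tested genes. The others gave -0.29 ± 0.18 (Kit), 0.60 ± 0.27 (Cd200r1) and -0.51 ± 0.21 (Hdac9), with limma adjusted p of 0.579, 0.351 and 0.271, and Hdac9 passed without the pair of narrow arrays (0.0491). Single arrays decided both calls. With a replicate block neither passed (limma adjusted p = 0.121 for Cpa3 and 0.0745 for Mctp1), and with no filter Cpa3 did not (0.0567). For Cpa3 the call was lost without any 1 of 5 arrays (replicates 1, 3 and 4 of Vg1.1+ cells, replicates 1 and 2 of Vg2+ cells, limma adjusted p from 0.0643 to 0.201). That of Mctp1 ended without any 1 of 4 (replicates 2 and 3 of either group, limma adjusted p from 0.0598 to 0.105).

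At CD24+CD73+ none of the 5 genes passed, and 0.0117% of tested genes were called. Cpa3 gave -0.78 ± 0.21 (Vg1.1+ minus Vg2+, limma adjusted p = 0.156, unadjusted 95% interval -1.22 to -0.34) and Mctp1 0.50 ± 0.21 (limma adjusted p = 0.227, interval 0.07 to 0.93). Kit, at 0.20 ± 0.18, and Hdac9, at 0.13 ± 0.21, had intervals that took in 0 and reached 0.58 and 0.56. For Cpa3 and Mctp1 the arrays of the subsets did not overlap, as for 17.9% of tested genes.

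At CD24-CD73+ Mctp1 alone passed, beside 11.5% of tested genes (5.79% higher, 5.72% lower). It was higher in Vg1.1+ cells by 0.67 ± 0.19 (means 4.73 ± 0.47 and 4.06 ± 0.32, SD, limma adjusted p = 0.0243, n = 4 each), although the arrays overlapped, as the narrow array of Vg1.1+ cells read 4.03. The call ended without any 1 of 4 arrays (replicates 2, 3 and 4 of Vg1.1+ cells, replicate 2 of Vg2+ cells, limma adjusted p from 0.0718 to 0.108). It also ended with a replicate block (limma adjusted p = 0.0508), with only the groups compared in the fit (0.176) and with cyclic loess (0.058). Cd200r1 gave 0.67 ± 0.25 (limma adjusted p = 0.0991) and 0.99 without the pair of narrow arrays (limma adjusted p = 0.00107). Cpa3 gave -0.50 ± 0.20 (limma adjusted p = 0.117), with the arrays of the subsets apart. This was the single gene of the 5 for which they were, beside 11.4% of all tested genes. The differences of Cpa3, Mctp1 and Cd200r1 had the same sign at all 3 stages, that of Cd200r1 not with the array SD as a covariate (-0.13 at CD24+CD73+). Those of Kit and Hdac9 did not.

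**Figure D3:**
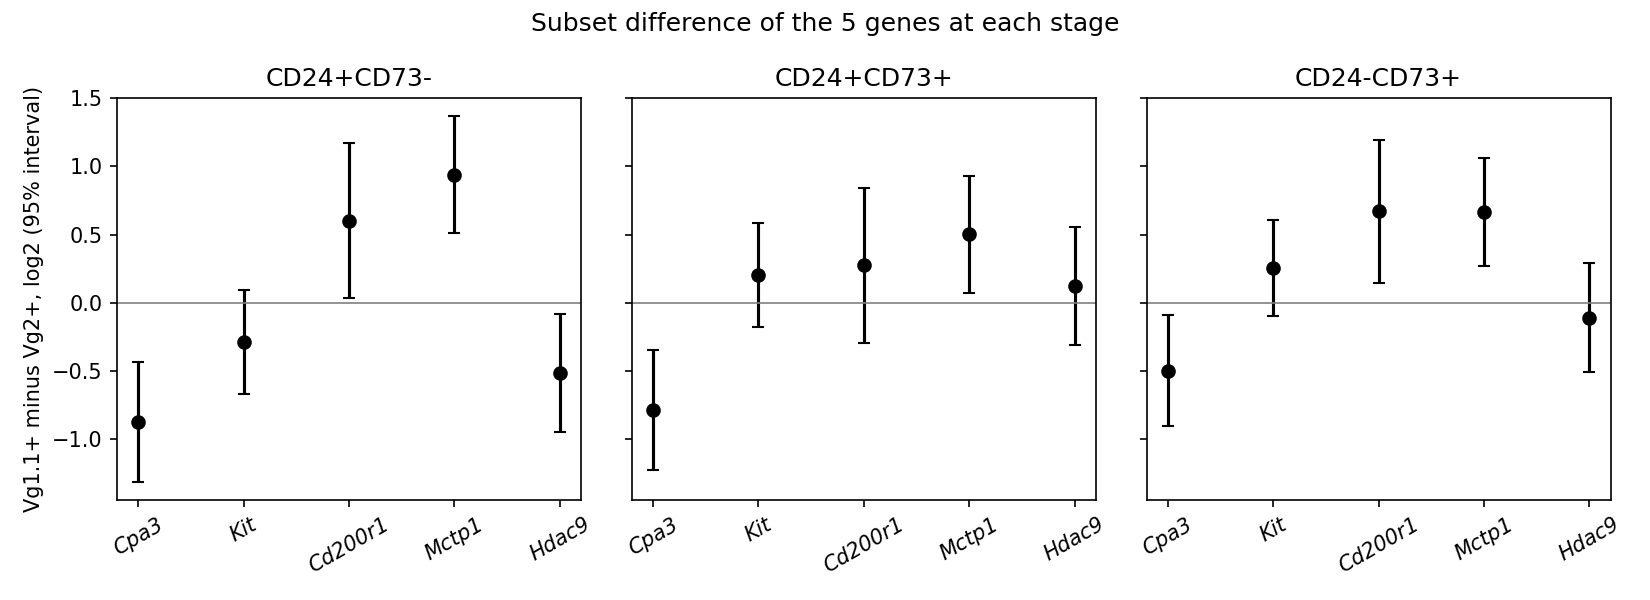
Difference between the subsets (Vg1.1+ minus Vg2+, log2) of the 5 genes at each stage, with unadjusted 95% intervals. Cpa3 lies below 0 and Mctp1 above it at all 3 stages, and Kit and Hdac9 change sign.

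The genes whose values ran most closely with each of the 5 were found by Pearson's r over the 22 arrays, among all tested genes. The arrays share the 6 groups, so they are not independent points, and r is given as a description. Cpa3 ran with Gria3, a glutamate receptor subunit (r = 0.979), the phosphodiesterase gene Gdpd1 (0.971), Mns1 (0.961), Angpt1, which encodes a ligand of the receptor Tie2 (0.961), and the E protein gene Tcf4 (0.94). Gria3 had group means of 6.53, 5.43 and 4.15 at the successive stages in Vg1.1+ cells and 6.88, 5.75 and 4.14 in Vg2+ cells. Like Cpa3, then, it was lower at each stage than at the one before.

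Kit, Cd200r1 and Mctp1 shared some of their nearest genes. Cd200r1 was the nearest gene to Kit (r = 0.928), and Cd200r1 and Mctp1 were nearest to each other (0.963). Trpm1, a cation channel gene of the melastatin family, was among the nearest 5 of all 3 (0.925, 0.945 and 0.958). Its group means were 4.42, 6.33 and 4.79 in Vg1.1+ cells and 4.15, 5.99 and 4.58 in Vg2+ cells, with the peak at CD24+CD73+. Kit was also close to the SoxD factor gene Sox5 (0.909), to Arhgap20 (0.908) and to Rab3ip (0.897). Mctp1 was close to Ddc, the aromatic amino acid decarboxylase (0.962), the orphan nuclear receptor gene Nr4a2 (0.954) and Rad54l2 (0.945). Cd200r1 was close to Rab3ip (0.961), Ap3b1 (0.937) and Tank (0.936).

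Hdac9 had other neighbours, namely Il6st, the shared signalling chain of the interleukin 6 family receptors (r = 0.933), Fbxo9 (0.923), the lysosomal channel gene Mcoln3 (0.909), Hsdl2 (0.908) and Snx13 (0.908). Among the 5 genes themselves Cpa3 stood apart, with r of 0.299 to Kit, 0.067 to Cd200r1 and -0.124 to Mctp1, and of 0.67 to Hdac9. Hdac9 lay between, with r of 0.871 to Kit, 0.721 to Cd200r1 and 0.581 to Mctp1.

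**Figure D4:**
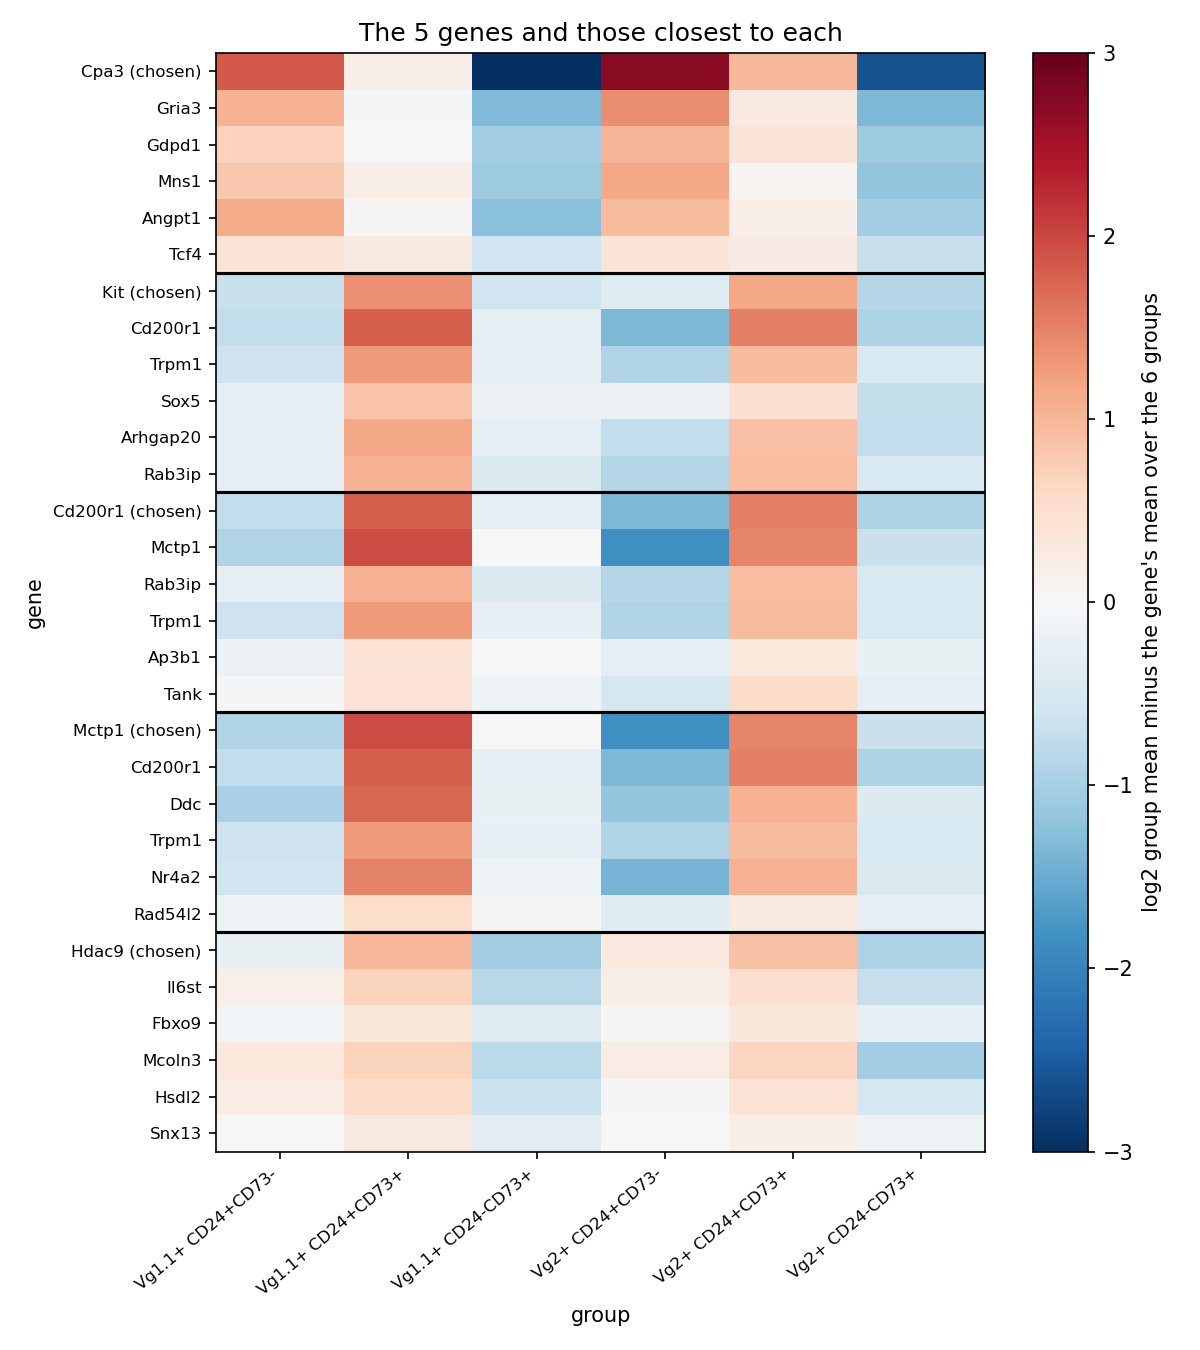
Group means of the 5 genes and of the 5 tested genes closest to each (Pearson's r over 22 arrays), each row given as log2 difference from that gene's mean over the 6 groups (red higher, blue lower, colour limits at -3 and 3). Cpa3 and Gria3 are highest at CD24+CD73-, and Kit, Cd200r1, Mctp1 and Trpm1 at CD24+CD73+.

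Cpa3 and Kit are both well known from mast cells, so markers of that cell type were read on the same arrays. Of 22 listed mast cell and basophil markers 17 had a probe set, and 13 of these were never above the table median, among them the IgE receptor chains Fcer1a and Ms4a2, the chymase Cma1 and the histidine decarboxylase Hdc. Only 2 could be tested, and neither passed at either step in either subset. The mean log2 value over the 17 markers ran from 2.69 to 3.05 in Vg1.1+ CD24+CD73- cells, from 2.80 to 2.89 in CD24+CD73+ cells and from 2.85 to 3.67 in CD24-CD73+ cells. In Vg2+ cells it ran from 2.85 to 2.99, from 2.93 to 3.54 and from 2.91 to 3.38. In Vg2+ cells the highest value at CD24+CD73+, where Kit was highest, exceeded all at CD24+CD73-, while Cpa3 was highest at CD24+CD73-. In Vg1.1+ cells, where Kit was also highest at CD24+CD73+, the values at that stage lay within the range at CD24+CD73-. The groups with the highest values, 3.67 and 3.54, are those that hold the narrow arrays, and most of these markers lay below the table median. The part of mast cells in the values of Cpa3 and Kit was not tested.

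Early thymic progenitors also carry Kit. Of 19 genes listed for these and other early thymocytes, 8 were tested and 10, among them Flt3, Cd34 and Spi1, were never above the table median. At the CD73 step in Vg1.1+ cells 1 rose and 1 fell, the factor gene Lyl1 (0.75 ± 0.14, limma adjusted p = 0.00112) and the interleukin 2 receptor chain Il2ra (-1.55 ± 0.19, limma adjusted p = 1.08e-05). In Vg2+ cells the homeobox gene Hhex alone rose (1.09 ± 0.20, limma adjusted p = 0.000737). At the loss of CD24 none of the 8 fell, while 3 rose in Vg1.1+ cells and 1 in Vg2+ cells. Hhex rose by 1.82 ± 0.20 in Vg1.1+ cells (limma adjusted p = 2.45e-06). Il2ra rose by 0.61 ± 0.19 in Vg1.1+ cells and by 2.53 ± 0.18 in Vg2+ cells. Of all tested genes 4.37% rose and 3.45% fell at the CD73 step in Vg1.1+ cells, and 5.82% and 6.41% in Vg2+ cells. At the loss of CD24 the shares were 4.28% and 6.92% in Vg1.1+ cells, and 10.3% and 9.91% in Vg2+ cells. With so few genes in a list, 1 or 2 calls are not read as a result about it.

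Markers of other cells that the sort could hold were read as well. Of 5 tested myeloid and dendritic cell markers 1 rose with CD73 in Vg1.1+ cells and 4 in Vg2+ cells, with Tyrobp, an adaptor that natural killer receptors also use, at 1.14 ± 0.24 and 2.58 ± 0.24. The complement gene C1qb was the next largest in Vg2+ cells (0.98 ± 0.21, limma adjusted p = 0.00322). Among 4 tested genes that mark alpha-beta thymocytes, 2 were lower at that step in Vg1.1+ cells and 1 in Vg2+ cells, with Cd8b1 at -2.29 ± 0.30 and -0.93 ± 0.30. Of 2 tested B-cell markers and 2 of thymic epithelium none passed at that step in either subset, and of 4 genes of innate lymphoid cells 1 rose and 2 fell in Vg1.1+ cells and 1 rose and 3 fell in Vg2+ cells. At the loss of CD24, where the 5 genes were lower, Epcam, an epithelial adhesion molecule, fell in both subsets (-1.08 ± 0.18 in Vg1.1+ cells, limma adjusted p = 0.000299, and -0.95 ± 0.17 in Vg2+ cells, limma adjusted p = 0.000246). It was 1 of 2 tested epithelial markers, and the other did not pass. The B-cell receptor chain Cd79b fell in Vg1.1+ cells (-1.03 ± 0.29, limma adjusted p = 0.0243) and rose in Vg2+ cells (0.99 ± 0.27, limma adjusted p = 0.0111). Themis, of the alpha-beta list, fell in both (limma adjusted p = 0.00661 in Vg1.1+ cells and 0.00025 in Vg2+ cells), while Cd8b1 rose in both. Of the myeloid list 1 rose in Vg1.1+ cells, and 1 rose and 1 fell in Vg2+ cells. Of the innate lymphoid list 3 rose in Vg1.1+ cells, and 2 rose and 1 fell in Vg2+ cells. These lists are short, and the shares of all tested genes given for the progenitor genes stand beside their counts too. The part of any of these markers in the values of the 5 genes was not tested.

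Partners of the 5 genes were taken from lists chosen by their known roles. Beside the counts of these lists, here and below, stand the shares of all tested genes given for the progenitor genes. Of the CD200 receptor pathway 9 of 13 genes were tested. Cd200, the ligand of Cd200r1, rose with CD73 by 1.55 ± 0.25 in Vg1.1+ cells (limma adjusted p = 0.000213) and by 2.26 ± 0.25 in Vg2+ cells (limma adjusted p = 1.17e-06). At the loss of CD24 Cd200 fell by 1.28 ± 0.25 in Vg1.1+ cells (limma adjusted p = 0.00126) and by 1.84 ± 0.23 in Vg2+ cells (limma adjusted p = 3.22e-06). Its group means were 6.74, 8.29 and 7.01 at the successive stages in Vg1.1+ cells and 5.30, 7.55 and 5.71 in Vg2+ cells, so ligand and receptor both peaked at CD24+CD73+. In the whole list 2 genes rose and none fell at the CD73 step in Vg1.1+ cells, and 3 rose and 1 fell in Vg2+ cells. The one that fell was Dok2, an adaptor that acts below the receptor (-0.44 ± 0.13, limma adjusted p = 0.0314). At the loss of CD24 1 rose and 2 fell in Vg1.1+ cells, and 2 rose and 2 fell in Vg2+ cells.

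Of 22 tested genes that act with or below Kit none passed at the CD73 step in Vg1.1+ cells, and 1 rose and 1 fell in Vg2+ cells, the adaptor Gab2 (0.59 ± 0.15, limma adjusted p = 0.0111) and the inhibitor of Ras signalling Spred1 (-0.57 ± 0.15, limma adjusted p = 0.0106). At the loss of CD24 1 fell in Vg1.1+ cells, and 1 rose and 3 fell in Vg2+ cells, with Spred1 at -0.49 ± 0.15 and -1.03 ± 0.13. The median log2 difference of the 22 lay between -0.25 and 0.14 over both steps and subsets, where that of all tested genes lay between -0.05 and 0.02. The ligand of Kit, Kitl, was below the table median on all arrays.

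Other class IIa deacetylases and their partners were measured through 16 tested genes of 22. At the CD73 step 2 fell in Vg1.1+ cells, beside 3.45% of all tested genes. In Vg2+ cells 2 rose and 5 fell, beside 5.82% and 6.41%. The pair that fell in Vg1.1+ cells were kinases of the family that phosphorylates class IIa deacetylases, and both fell in Vg2+ cells too, Camk2d (-1.42 ± 0.15 and -1.71 ± 0.15) and Camk4 (-0.46 ± 0.11 and -0.92 ± 0.11). At the loss of CD24 1 of the 16 rose and 1 fell in Vg1.1+ cells, and 3 rose and 0 fell in Vg2+ cells. Hdac5, a paralogue of Hdac9, rose there by 0.60 ± 0.13 in Vg1.1+ cells (limma adjusted p = 0.00265) and by 0.45 ± 0.12 in Vg2+ cells (limma adjusted p = 0.0083), where Hdac9 was lower. The paralogues Hdac4 (-0.47 ± 0.19 and -0.23 ± 0.18) and Hdac7 (-0.41 ± 0.17 and -0.32 ± 0.16) were lower at that step and did not pass. Of 10 other histone deacetylases none passed at the CD73 step in either subset, and at the loss of CD24 Hdac2 alone fell in Vg1.1+ cells (-0.66 ± 0.21, limma adjusted p = 0.0492) and none in Vg2+ cells.

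Of the metallocarboxypeptidases related to Cpa3, and latexin, an inhibitor of such enzymes, 4 of 16 were tested and 9 were never above the table median. At the loss of CD24 3 of the 4 rose in Vg1.1+ cells, and 2 rose and 1 fell in Vg2+ cells. Cpd rose by 2.72 ± 0.11 and Cpe by 2.10 ± 0.17 in Vg2+ cells (limma adjusted p = 1.47e-13 and 1.18e-08), while Lxn rose by 1.02 ± 0.24 in Vg1.1+ cells (limma adjusted p = 0.00641). Of the C2-domain membrane proteins related to Mctp1, 7 of 21 were tested. Its paralogue Mctp2 rose with CD73 in Vg2+ cells (0.55 ± 0.15, limma adjusted p = 0.0151), as did Sytl2, and Sytl1 fell. None of the 7 passed at that step in Vg1.1+ cells or at the loss of CD24 in either subset.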

How the data were processed

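RNA of 22 samples was hybridised to 22 arrays in 1 colour. The authors deposited log2 values per probe set. The submitters' processing notes name RMA and oligo, without versions. RMA removes background, equalises arrays and summarises probes, and it compresses differences near the background. No genome build for the probes was found in the sources used. Of 16755 probe sets 14996 listed 1 gene symbol, 1019 several and 740 none, and only the first were used, by the probe set of highest mean where a gene had several. Genes above the table median (4.55) on at least 3 arrays were tested (8545). All 5 genes passed, Kit and Hdac9 above it on 22 arrays, Cpa3 on 14, Cd200r1 and Mctp1 on 10.

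All arrays entered a linear model with a mean for each of the 6 groups (limma 3.58.1, R 4.3.3). Tests were two-sided, and p-values were adjusted by Benjamini-Hochberg within a comparison, with a threshold of 0.05. Intervals at 95% are per gene and unadjusted. The fit was tested on simulated data. The arrays' number limits the precision.

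The genes and the lists of partners and markers were chosen with earlier results of these data known. Named were the 5 genes, the 5 genes closest to each, the 5 next in rank, and up to 2 per direction of each list and step. The text gives a selection of these, taken after their values were seen. Alternatives were a replicate block, no filter or a stricter one, eBayes with trend and robust options, only the groups compared, array weights, cyclic loess, the array SD as a covariate, and fits without the pair of narrow arrays or without each array in turn.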

Additional observations from a re-analysis of the deposited data

Results flagged for a closer look

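In the CD24-CD73+ group of Vg1.1+ cells, replicate 1 stood apart from the other 3 arrays for 2 of the 5 genes. Mctp1 read 4.03 there, against 4.90 to 5.05 on the others. Hdac9 read 4.81, against 5.70 to 5.84. The gap to the nearest value took 0.855 and 0.861 of the group's range. This was the array of narrowest spread (SD 1.61). Of 20 combinations of a gene and a group of 4 arrays 2 were picked out in this way, and chance picks out about 1 in 20. Without the pair of narrow arrays the CD24 loss step in Vg1.1+ cells was -1.74 for Mctp1 and -1.81 for Hdac9.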

How the results depend on the processing

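The first step kept its direction and calls for all 5 genes in Vg1.1+ cells and for 4 in Vg2+ cells under all 31 alternatives, and Hdac9 in Vg2+ cells passed under 6 of them. Between the last and first stage all 5 genes passed in each subset with the array SD as a covariate, against 3. Whether the numbers of the replicates pair the samples was not settled. Deviations from the group means of same-numbered arrays correlated at -0.28 to -0.13 on average, against 0.06 for differently numbered arrays of different groups. Single same-numbered pairs ran from -0.67 to 0.56 and the others from -0.57 to 0.73, so the averages cannot decide it. With a replicate block 0 genes passed at CD24+CD73- and 0 at CD24-CD73+, against 2 and 1, and other counts of the 5 did not change by over 1.5 times. At CD24+CD73- no filter left 1, array weights gave 4, and leaving out 1 array gave 0 to 2. At CD24+CD73+ array weights gave 1 (Cpa3) and leaving out 1 array 0 to 1, against 0. At CD24-CD73+ only the groups compared gave 0, cyclic loess 0, array weights 3, the SD covariate 2, the fit without the narrow pair 3, and leaving out 1 array 0 to 2. Among tested differences the sign turned only where they had not passed. These were, for Kit, last against first stage in Vg1.1+ cells (-0.032 to 0.24 when 1 array was left out, lowest without Vg1.1+ CD24-CD73+ replicate 3) and the subset difference at CD24+CD73+ (-0.092 with the SD covariate), and for Cd200r1 that same difference (-0.13, same setting). For Hdac9 the subset difference turned at CD24+CD73+ (-0.046 with array weights, -0.014 with cyclic loess, -0.23 with the SD covariate) and at CD24-CD73+ (0.055 with array weights, 0.13 without the narrow pair or without its Vg1.1+ array). For Cpa3 the subset difference of the first step turned (-0.033 with array weights, -0.00735 with cyclic loess, and -0.059 to 0.27 when 1 array was left out, below 0 without any 1 of 4). In the untested subset difference of the CD24 loss step, Hdac9 ran from -0.35 to 0.15 (0.11 without the narrow pair) and Kit from -0.068 to 0.37. Genes called among all tested moved from 668 to between 437 and 2572 at the first step in Vg1.1+ cells, from 175 to between 63 and 1203 between subsets at CD24+CD73-, and from 984 to between 466 and 1791 at CD24-CD73+. They moved from 1 to between 0 and 436 at CD24+CD73+, from 8 to between 6 and 445 for the difference of the first step, from 1045 to between 673 and 1457 at the first step in Vg2+ cells, and from 1994 to between 1516 and 3361 over the whole course in Vg1.1+ cells. The cause was not tested.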
